A study of Mus musculus with 15 samples.

Results

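In wild-type forelimb of mouse embryos, 466 of 1379 reproducible clusters of Mbnl3 CLIP tags (33.8%) lay on the same RNA strand and over the same bases as a tag cluster of C2C12 myoblasts. A tag is the aligned position of a captured RNA fragment, and a cluster is an unbroken run of tags on 1 strand. A forelimb cluster was reproducible when the 3 wild-type (WT) libraries gave it at least 10 tags in all and at least 1 each. It was shared when it had 1 nt or more in common with a C2C12 cluster of at least 10 tags on its strand. The other 913 reproducible forelimb clusters met no such C2C12 cluster. WT and C2C12 tags thus chose the shared clusters, and the levels of WT against C2C12 there are given as a description, with no test. Tags of the mutant forelimbs were not used in the choice.

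Mbnl3 is a muscleblind-like protein, one of a family of zinc-finger proteins that bind RNA and regulate its splicing, stability and localisation. In muscle the family is best known for setting the switch between embryonic and adult splice forms. Mbnl3 is the member found mainly in embryonic tissue and in proliferating muscle precursors, and C2C12 is a mouse line of such precursors. In HITS-CLIP, ultraviolet light links RNA to bound protein, the complex is precipitated with an antibody, and the RNA that remains is sequenced.

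Forelimbs came from BL6 embryos at day 15, either WT or homozygous for the Mbnl3 ΔE2 allele, whose CLIP samples carry Mbnl3 KO in their titles, and each library pooled 4 forelimbs of 2 embryos. Each of the 3 C2C12 replicates came from 5 plates of cells of WT genotype grown in 20% serum, and the authors combined them into 1 set. The forelimb is a mixture of tissues and C2C12 is a single line, and markers of either could not be read from clusters without gene names. Fewer cells of a type and less bound RNA per cell cannot be told apart in such material.

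The WT libraries held 35413, 74123 and 124309 tags. ΔE2 replicates 2 and 3 had 83.7% and 57.4% of their tags at the same position, strand and molecular barcode, and were counted as 1 library of 65730 tags beside the 67279 of replicate 1. Pairs of WT libraries also shared molecules, from 8.93% to 32.4% of a library's tags, and stayed separate. The C2C12 set gave 550124 tags once repeats of 1 molecule were counted once. The file designations of WT and C2C12 carry a number different from that of ΔE2, which no label explains, so it cannot be told apart from genotype. No test was made of whether Mbnl3 itself held the RNA of the ΔE2 tags. Positions are given on the mm9 build with the first base as 1. Genes were not assigned to clusters because no mm9 annotation was used, and tags on ribosomal and other abundant RNAs were not set apart.

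The overlap was nearly always on the same strand. Only 2 of the 1379 forelimb clusters (0.145%) met a C2C12 cluster on the opposite strand. From the myoblast side, 408 of 2015 C2C12 clusters (20.2%) were hit by a shared forelimb cluster. Of these, 64 covered 2 or more shared clusters, up to 11 under a single C2C12 cluster, so shared clusters with the same C2C12 partner are not independent of each other. At the threshold, 60 shared clusters held 10 or 11 WT tags, and 50 met a C2C12 cluster of 10 or 11 tags. Within the bounds of the forelimb cluster itself, 46 held under 10 C2C12 tags, with a lowest count of 3. Just outside, 586 of the other clusters held 1 to 9 C2C12 tags and 287 held none. The remaining 40 held 10 to 14, spread over C2C12 clusters that were each below 10 tags.

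Shared clusters were the denser part of forelimb binding. They held a median of 20 WT tags over 91 nt, against 15 tags over 81 nt in the other clusters. In density this was 0.245 against 0.203 tags per nt. Inside them the C2C12 count ran from 3 to 1008 with a median of 18. In CPM, tags per 1000000 tags of the library or set, the ratio of WT to C2C12 was above 1 in 432 of 466 shared clusters (92.7%), with a median of 2.82 and a range from 0.0944 to 29.2. The thresholds themselves favour WT, since 10 tags are 42.8 CPM in pooled WT and 18.2 CPM in C2C12, a ratio of 2.35 for a cluster at both. Of the 466, 289 (62.0%) were above 2.35, and equality is not the value of no difference here. Shared clusters took up 11.7%, 8.45% and 7.82% of all tags in the WT libraries and 2.73% in C2C12. Across the 466 clusters, WT and C2C12 tags had a Spearman correlation of 0.43, and pairs of WT libraries had correlations from 0.58 to 0.79. These describe the same clusters, which share libraries and depth.

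Much of the signal sat in few places. The 10 shared clusters with the most WT tags held 27.7% of all WT tags in shared clusters and 19.7% of the C2C12 tags. Of these, 4 lay close to each other on the plus strand of chromosome 17. The richest, chr17:39984118-39984215, had 225, 267 and 458 WT tags, 596 and 657 ΔE2 tags and 202 C2C12 tags. It had the most tags of any shared cluster in forelimb of either genotype, and in C2C12 it ranked below 3 of its neighbours. The longest of these, chr17:39984605-39985113, had 232, 278 and 409 WT tags and 1008 C2C12 tags, the most of any shared cluster. Between them lay chr17:39984437-39984594, with 150, 177 and 255 WT tags and 508 in C2C12. Upstream of all 3, chr17:39983403-39983650 had 169, 208 and 274 WT tags and 374 in C2C12.

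**Figure D1:**
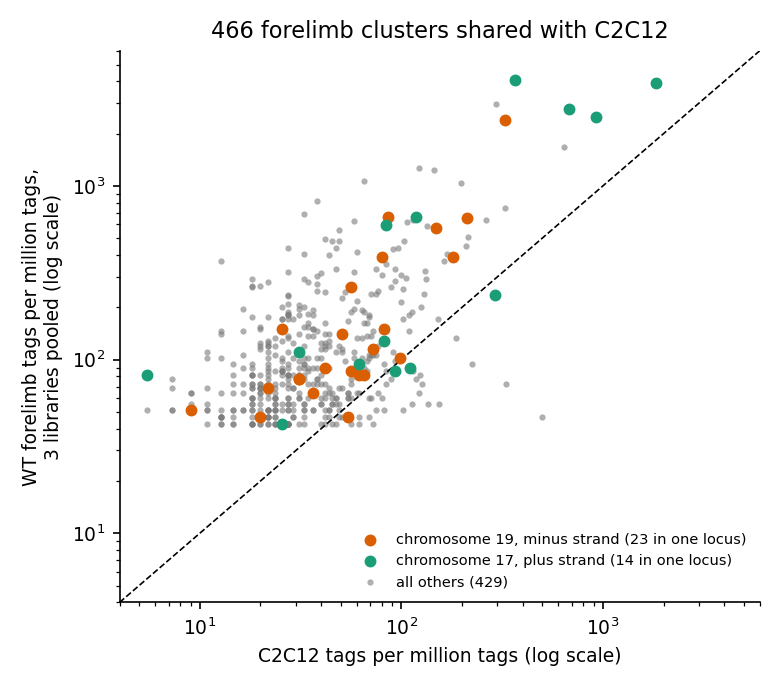
CPM in C2C12 (x axis) and in pooled WT forelimb (y axis), both on log scales, for each of the 466 shared clusters, with the 2 loci of most shared clusters coloured and equality as a dashed line. Of 466 points, 432 lie above the line, where a cluster at both thresholds would lie too, with a ratio of 2.35, and the chromosome 17 and 19 loci span almost the whole range of levels.

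Outside chromosome 17, the third richest cluster was chr3:5860630-5860829 on the plus strand, with 237, 193 and 260 WT tags and 162 in C2C12. WT replicate 1, the smallest library, gave it more tags than replicate 2, so in CPM it was highest in that library. On the minus strand of chromosome 19, chr19:5797601-5797951 had 92, 169 and 298 WT tags and 180 in C2C12. Further minus-strand clusters were chr11:108873110-108873345, with 96, 138 and 159 WT tags and 352 in C2C12, and chr8:3754405-3754491, with 86, 81 and 130 WT tags and 67 in C2C12. The remaining 4 of the 12 richest lay on the plus strand. They were chr4:140277823-140278090, chr2:174171915-174172077, chr9:72595566-72595860 and chr9:120869127-120869292. Their pooled WT level ran from 817 to 1240 CPM, and each was between 5.27 and 21.4 times as high in WT as in C2C12.

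Some shared clusters leaned strongly to 1 of the 2 sources. Among the 343 with at least 30 tags in all, the ratio of WT to C2C12 was highest at chr12:70474471-70474532 on the plus strand, with 9, 30 and 48 WT tags against 7 in C2C12, a ratio of 29.2. Next came chr9:120869127-120869292 at 21.4 and chr1:162965531-162965600 at 21.2, both on the plus strand. The latter had 25, 56 and 81 WT tags and 18 in C2C12. At the other end stood chr1:56839014-56839174 on the minus strand, with 4, 5 and 2 WT tags and 274 in C2C12, a ratio of 0.0944. The minus-strand cluster chr10:82418001-82418053 had 4, 9 and 4 WT tags and 181 in C2C12, a ratio of 0.221. With 11 and 17 WT tags in all, both held fewer than the median of 20.

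On the mitochondrial chromosome the balance ran towards myoblasts at every shared cluster. All 4 of its reproducible forelimb clusters were shared, all on the plus strand between bases 1094 and 2677, and all 4 had a ratio below 1, from 0.408 to 0.864. Together they had 14, 25 and 45 WT tags, 36 and 39 ΔE2 tags and 350 C2C12 tags. A ratio below 1 was found at 34 of the 466 shared clusters, 30 of them on other chromosomes. Summed over loci of 3 or more shared clusters, it was below 1 at 3, the mitochondrial locus (0.565), chr11:118163508-118164243 (0.623) and chr15:76001818-76002626 (0.865), the latter 2 on the minus strand.

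Shared clusters were grouped on the genome. When clusters of 1 strand separated by at most 10000 nt were joined into a locus, the 466 fell into 276 loci, of which 185 held a single cluster. The other 91 held 281 shared clusters, and 18 loci with 4 or more held 111. By chromosome, the shared fraction of reproducible clusters ran from 17.3% on chromosome 12 (9 of 52) to 63.0% on chromosome 19 (46 of 73), apart from the mitochondrial chromosome. On chromosome 5 it was 56.3% (45 of 80). The plus strand held 43.3% of shared and 45.3% of other clusters.

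The locus with the most shared clusters was chr19:5796081-5802667 on the minus strand, with 23 in 6587 nt and no other reproducible WT cluster among them. It gave 228, 465 and 883 WT tags, 509 and 456 ΔE2 tags and 1017 C2C12 tags. In CPM these came to 6438, 6273 and 7103 in WT, 7566 and 6937 in ΔE2 and 1849 in C2C12, so that the genotypes overlapped over the locus as a whole. Inside it the deepest bin of pooled tags differed between the genotypes. Depth is given here in CPM over bins of 10 nt, counted from the 5′ edge of the first shared cluster. In WT it was highest 4830 nt downstream, at 1197, where ΔE2 had 759. In ΔE2 it was highest at 4200 nt, at 1112, where WT had 300.2. Depth was not split by library. By tags of the whole cluster, the one with the WT peak, chr19:5797601-5797951, had 127 and 93 in ΔE2. The one with the ΔE2 peak, chr19:5798423-5798584, had fewer, 96 and 91. In the test given further on, the cluster over the WT peak had a log2 fold of 0.06 and was not called. C2C12 also peaked at the WT position, within 1 bin, yet at only 59.1, and its tags were spread more evenly over the locus. The median bin stood at 11.1 in WT, 15.0 in ΔE2 and 9.09 in C2C12.

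**Figure D2:**
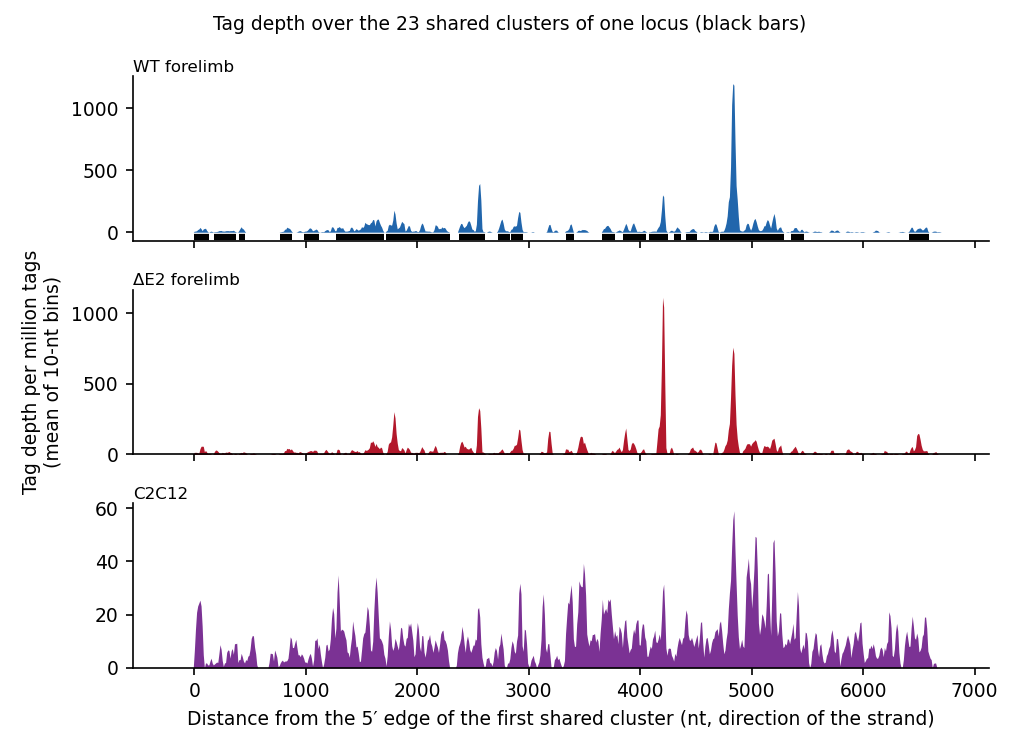
Tag depth in CPM over 10-nt bins (y axes, each with its own scale) along the minus-strand locus of chromosome 19 in the direction of the strand (x axis, nt), for pooled WT, pooled ΔE2 and C2C12, with the 23 shared clusters as black bars. WT peaks at 1197 near 4830 nt, ΔE2 at 1112 near 4200 nt, and C2C12 stays below 60.

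Next in number was chr17:39980266-39985113 on the plus strand, with 14 shared clusters and 17.9% of all WT tags in shared clusters. Its tags numbered 879, 1075 and 1645 in WT, 1589 and 1733 in ΔE2, and 2588 in C2C12. In CPM, WT replicate 1, at 24821, lay within the ΔE2 values of 23618 and 26365, and WT replicates 2 and 3, at 14503 and 13233, lay below them. The 14 clusters differed widely in balance, from a WT to C2C12 ratio of 0.809 to 14.9. Here C2C12 was deepest under the cluster chr17:39984437-39984594, while both forelimb genotypes were deepest under chr17:39984118-39984215, at 3723 CPM in WT and 8896 in ΔE2.

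The loci of 4 or more shared clusters are given here by their summed CPM over all tags of a library. Both ΔE2 libraries lay below all WT libraries at 11 of the 18, above all of them at 1, the mitochondrial locus (337 to 395 in WT, 535 and 593 in ΔE2), and overlapped them at 6. This scaling puts most clusters lower in ΔE2, with a median log2 fold of -0.57 over all 276 clusters tested for genotype. By pooled CPM, ΔE2 was below WT at 79.0% of shared and 83.4% of other reproducible clusters. Choosing clusters by their WT tags favours the same direction. No such count was made for loci of other clusters, so 11 of 18 cannot be read as particular to these loci. Of the loci of 5 to 7 clusters, chr19:44377819-44380868 on the plus strand held 7, with 1512 to 2090 CPM in WT and 1174 and 700 in ΔE2, and chr5:143664824-143666191 on the minus strand held 6, with 692 to 836 in WT and 490 and 243 in ΔE2. Those of 5 were of both kinds. ΔE2 lay below WT at chr5:135095989-135097230 (1335 to 1723 in WT, 788 and 487 in ΔE2), chr5:93600360-93603331 (917 to 1214, and 461 and 213) and chr8:87228631-87232001 (410 to 762, and 119 and 137). The genotypes overlapped at chr19:9092866-9093513 (452 to 821, and 669 and 578) and chr15:72927223-72933826 (367 to 594, and 535 and 152). No test was run on these sums. In the test of single clusters given further on, none of the 3, 3 and 5 tested clusters at the first 3 of these loci was called.

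Where tags piled up inside a shared cluster was close, but not identical, in the 2 sources. The summit is the middle of the deepest bases. WT and C2C12 summits were a median of 12 nt apart, and 266 of 466 (57.1%) were within 15 nt. For WT and ΔE2 the median was 6 nt, with 75.9% of 456 within 15 nt, and for pairs of WT libraries it ran from 5 to 7 nt, with 71.9% to 80.5% within 15 nt. Summits of pooled ΔE2 and pooled WT thus lay at distances like those between single WT libraries, and the C2C12 summit lay farther off. WT libraries share molecules with each other, and a single library has fewer tags per cluster than a pooled set. The part of either in these distances was not tested. The median signed offset of the C2C12 summit was 2.5 nt downstream. Other clusters with C2C12 tags had 58.3% within 15 nt. Tag lengths ran from 26 to 30 nt in C2C12 and from 19 to 38 nt in forelimb, and the part of tag length in these offsets was not tested.

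**Figure D3:**
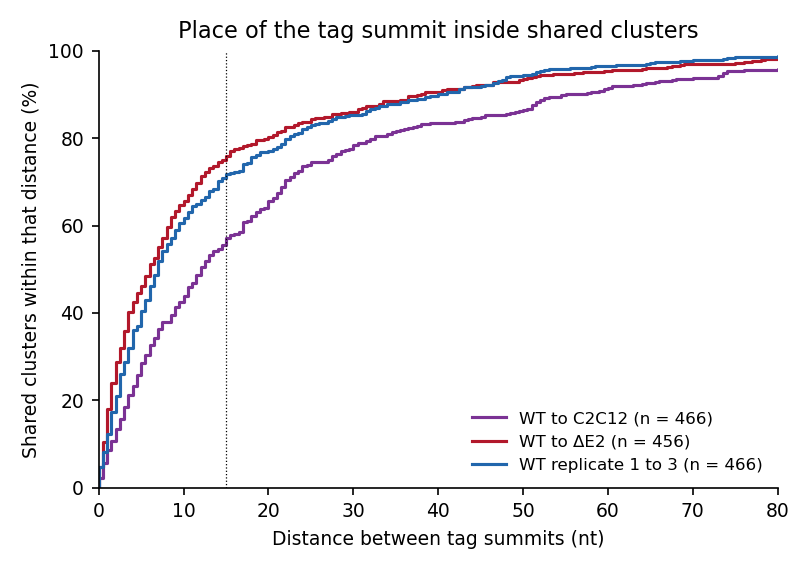
Cumulative percentage of shared clusters (y axis) whose tag summits lie within a given distance in nt (x axis), for WT against C2C12 (n = 466), WT against ΔE2 (n = 456) and WT replicate 1 against 3 (n = 466), with 15 nt as a dotted line. The C2C12 curve runs below the others, reaching 57.1% at 15 nt against 75.9% for ΔE2.

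The combined C2C12 file is made of 3 consecutive blocks of rows with separate display colours, which no label ties to a replicate. Within a block no molecule was repeated, and 21.0% of molecules stood in 2 or more blocks. Of the 466 shared clusters, 440 (94.4%) had C2C12 tags in all 3 blocks, 24 in 2 and 2 in 1. Counting only molecules of a single block, 433 had tags in at least 2 blocks and 270 in all 3. When the rows of 1 block were left out, the number of shared clusters was 232 without the first, 423 without the second and 454 without the third. The first block holds 420336 of the 677787 rows.

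Most shared sites also had tags in ΔE2 forelimb. Of the 466, 366 (78.5%) had a tag in both ΔE2 libraries and 10 had none, against 679 (74.4%) and 35 of the other 913 clusters. A reproducible ΔE2 cluster, of at least 10 tags with at least 1 in each library, lay over 168 shared clusters (36.1%) and 196 others (21.5%). The gap narrowed once clusters of like WT depth were set side by side. With 10 to 19 WT tags the shares were 14.5% and 9.29%, with 20 to 49 tags 41.4% and 38.6%, and with 50 or more 85.4% and 89.7%. A tag in both ΔE2 libraries was found at 66.5% of shared and 66.1% of other clusters with 10 to 19 WT tags. With 20 to 49 tags this share was lower in shared clusters, at 84.7% against 91.4%, and with 50 or more it was 100% in both. In CPM, ΔE2 was below WT in 79.0% of shared and 83.4% of other clusters, a direction that choosing clusters by their WT tags favours.

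Among tags in the 1379 reproducible clusters, shared clusters held 49.9%, 45.1% and 44.0% in WT libraries, against 51.2% and 57.7% in ΔE2. Both ΔE2 values were above all WT values. The WT mean was 46.3% ± 3.12 (SD, n = 3) and the ΔE2 mean 54.5% ± 4.64 (SD, n = 2), a difference of 8.13 percentage points. WT tags took part in choosing the clusters, so these shares are a description, with no test. Without the 10 clusters of most WT tags, the means were 38.1% ± 1.60 (SD, n = 3) and 41.4% ± 2.90 (SD, n = 2), 3.28 points apart, and the libraries overlapped. As a share of all tags, the clusters held 9.31% ± 2.06 in WT (SD, n = 3), against 8.08% ± 0.0391 in the mutant libraries (SD, n = 2).

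**Figure D4:**
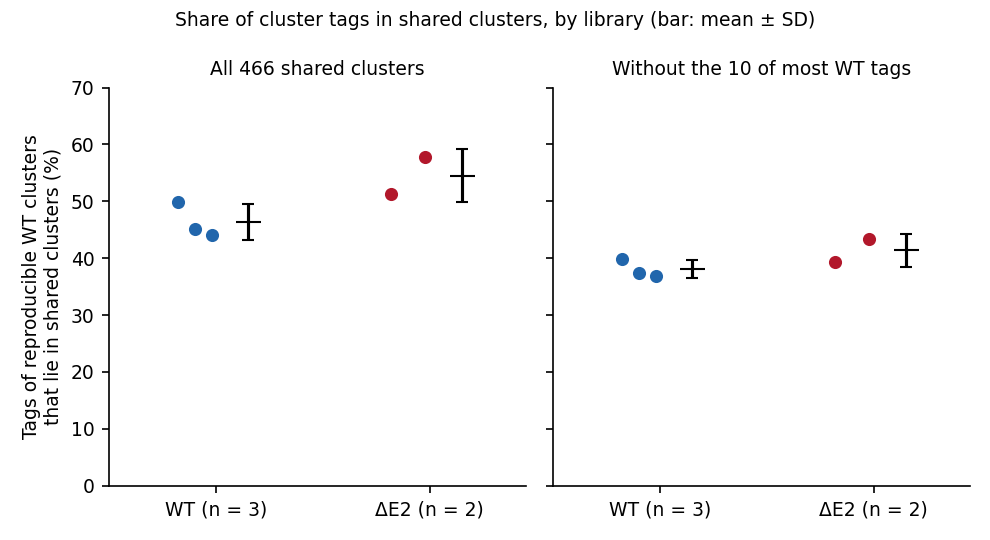
Percentage of the tags in reproducible WT clusters that lie in shared clusters (y axis) for each of 3 WT and 2 ΔE2 libraries (points), with the mean ± SD beside them, for all 466 shared clusters and without the 10 of most WT tags. ΔE2 libraries stand at 51.2% and 57.7% against 44.0% to 49.9% in WT on the left, and the genotypes overlap on the right.

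Single sites were compared between genotypes on clusters merged over all forelimb libraries, with edgeR's quasi-likelihood test and p adjusted over all tested clusters. The 466 shared clusters lay in 449 of these, of which 146, holding 161 shared clusters, had enough tags to test, so 305 shared clusters were not tested. Of the 146, 35 (23.97%) differed at an adjusted p of at most 0.05, 25 higher and 10 lower in ΔE2. WT tags took part in choosing the shared clusters, which favours losses, and sites with tags in ΔE2 alone could not be among them. The adjusted p-values from edgeR do not allow for this choice. Over all 276 tested clusters the share called was 22.5%, with 15.9% higher and 6.52% lower, so the shared sites were called about as often as forelimb clusters at large. The median log2 fold was -0.10 in the 146 and -0.08 in all 276. Values of the genotypes did not overlap at 77 of the 146 (52.7%), against 55.8% of all tested clusters. With library size as the scaling in place of TMM, the median of all clusters moved by -0.39 on the log2 scale and the split of calls was 15 higher and 26 lower, so the excess of gains depended on scaling.

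No locus held calls in both directions, but most held a single call and could not. Those with more than 1 call were the 2 loci with the most shared clusters, the mitochondrial locus and chr5:93600360-93603331. The 35 calls lay in 28 loci of shared clusters, 19 with gains and 9 with losses, and the 2 loci with the most shared clusters held 7 of the 25 gains. On chromosome 17, at 39980266 to 39985113, 4 of 9 tested clusters rose and the other 5 had log2 folds from 0.54 to 1.14. On chromosome 19, at 5796081 to 5802667, 3 of 9 rose and the other 6 had log2 folds from -0.02 to 0.68. On the mitochondrial chromosome both tested clusters rose, by 1.09 and 1.73 on the log2 scale.

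The largest gain was at a site that was weak in WT. At chrX:23585757-23585810 on the plus strand the WT libraries had 2, 6 and 7 tags, the ΔE2 libraries 23 and 43, and C2C12 35. Both ΔE2 libraries stood far above the WT libraries, with a log2 fold of 3.44 ± 0.47 (SE; edgeR adjusted p = 0.00316). The site also had more tags in C2C12 than in the 3 WT libraries together, out of a larger set. On the plus strand of chromosome 6, chr6:3151264-3151358 had 14, 23 and 35 tags in WT, 62 and 136 in ΔE2 and 55 in C2C12. All ΔE2 values were above all WT values, with a log2 fold of 2.81 ± 0.42 (SE; edgeR adjusted p = 0.00348), and 34.7% of its WT tags had distinct positions. Its fold fell to 1.54 with tags of the same position counted once.

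The deepest bin of pooled ΔE2 tags at the chromosome 19 locus fell in the cluster chr19:5798304-5798584. This cluster had 12, 27 and 67 WT tags, 102 and 93 ΔE2 tags and 60 in C2C12. The ΔE2 values were above the WT values in spite of WT replicate 3 being the largest library, with a log2 fold of 2.27 ± 0.31 (SE; edgeR adjusted p = 0.00316). The richest shared cluster, chr17:39984118-39984215, rose by 1.65 ± 0.35 on the log2 scale (SE; edgeR adjusted p = 0.0138). In CPM over the tested clusters alone, scaled by TMM, the WT mean was 32790 ± 8085 (SD, n = 3) and the ΔE2 mean 102176 ± 23963 (SD, n = 2). Only 13.3% of its WT tags had distinct positions, and with tags of the same position counted once the log2 fold was 0.64 and the call was lost. Nearby, chr17:39983816-39983871 had 25, 40 and 74 WT tags and 97 and 90 ΔE2 tags, and rose by 1.75 ± 0.26 (SE; edgeR adjusted p = 0.00348). Its fold was 1.16 with positions counted once, still past the threshold.

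Other gains among the 10 of largest fold stood on several chromosomes. The minus-strand cluster chr2:5300346-5300414 had 25, 23 and 47 tags in WT, 67 and 100 in ΔE2 and 18 in C2C12, a log2 fold of 2.10. On the plus strand, chr15:59162527-59162652 had 3, 3 and 9 tags in WT, 13 in each ΔE2 library and 23 in C2C12, a log2 fold of 2.08. Both were higher in each ΔE2 library than in any WT library after scaling. Plus-strand gains of 1.96, 1.80 and 1.77 lay at chr17:71313051-71313207, chr17:39980534-39980757 and chr4:116862595-116862662. The mitochondrial cluster at bases 2628 to 2677 had 3, 3 and 12 WT tags, 10 and 14 ΔE2 tags and 49 in C2C12, and rose by 1.73 (edgeR adjusted p = 0.0374).

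All 10 losses are named here, a direction that choosing clusters by their WT tags favours. The deepest, chr8:87228858-87228956 on the minus strand, had 15, 13 and 25 tags in WT, 1 in each ΔE2 library and 28 in C2C12. It was nearly empty in ΔE2, with a log2 fold of -3.35 ± 0.71 (SE; edgeR adjusted p = 0.0134). On the plus strand, chr11:109528893-109529012 had 9, 14 and 17 WT tags, 2 and 1 ΔE2 tags and 56 in C2C12, a log2 fold of -2.40. On the minus strand, chr1:92672542-92672772 had 21, 36 and 44 WT tags, 4 and 5 ΔE2 tags and 50 in C2C12. In all 3 the ΔE2 libraries lay below every WT library, and the last had a log2 fold of -2.20 ± 0.41 (SE; edgeR adjusted p = 0.00897). Neighbouring losses at chr5:93602358-93602489 and chr5:93602896-93603002 on the plus strand, belonged to the locus chr5:93600360-93603331 described above and had log2 folds of -1.41 and -1.69. Minus-strand losses lay at chr3:36348108-36348256 (-2.02), chr9:42772589-42772818 (-1.94), chr1:13555088-13555230 (-1.32) and chr7:30972192-30972510 (-1.24). The smallest loss was at one of the 12 richest shared clusters, chr4:140277823-140278090 on the plus strand, with 58, 80 and 152 WT tags and 35 and 28 ΔE2 tags, a log2 fold of -0.91 ± 0.28 (SE; edgeR adjusted p = 0.0416).

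Gains and losses differed in shape. The 25 clusters that rose had a median width of 98 nt, and 13 were at most 100 nt wide. The 10 that fell had a median width of 146 nt, with 1 at most 100 nt wide, and the 111 not called had a median of 158 nt, with 28. Stacking of tags was taken from the shared cluster of most WT tags in each. There the commonest 5′ end took a median of 19.2% of WT tags in gains, against 9.79% in losses and 14.6% in clusters not called. Distinct positions made up 59.5%, 69.9% and 66.1% of WT tags in the same order. These shared clusters had as few as 15 WT tags in gains and 40 in losses, and the groups were not matched for depth. Widths are of clusters merged over both genotypes, and these are descriptions with no test.

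**Figure D5:**
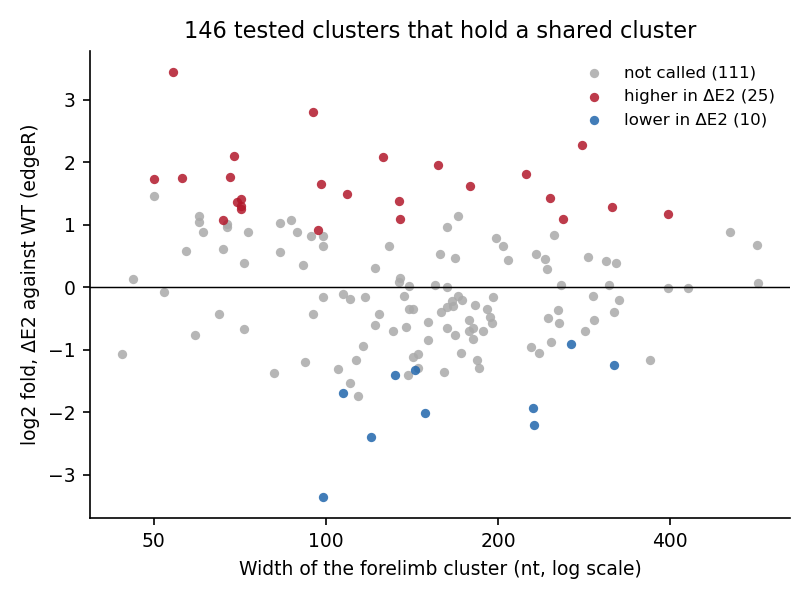
Log2 fold of ΔE2 against WT (y axis, edgeR) by the width of the forelimb cluster in nt (x axis, log scale) for the 146 tested clusters that hold a shared cluster; points are coloured by call. The 25 gains sit mostly to the left of the 10 losses, at median widths of 98 and 146 nt.

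The calls rested on particular libraries. No gain or loss changed sign under any alternative in which it could be tested, but 23 of the 35 calls ended without WT replicate 2, 22 without WT replicate 3, 11 without ΔE2 replicate 1, 4 without ΔE2 replicate 3 and 2 without ΔE2 replicate 2. In every fit without 1 library in which they could be tested, 8 of the 35 stayed called, 7 gains and 1 loss. The gains were those at chrX:23585757, chr6:3151264, chr19:5798304, chr2:5300346, chr17:39983816, chr5:115548134 and base 2628 of the mitochondrial chromosome, the last tested in 4 of the 6 fits. The loss was that at chr1:92672542. With WT replicates 2 and 3 counted as 1 library, which share 32.4% and 19.3% of their tags, edgeR called none of 238 clusters, 72 of which had an unadjusted p under 0.05. DESeq2 on the same clusters called 17 of the 146, 15 higher and 2 lower, against 12.7% of all 276.

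The authors' deposited table of cassette exons compares RNA-seq of 3 WT and 3 ΔE2 female forelimbs, and lists 98 events in 84 genes. None of the 466 shared clusters lay inside the span of an event, against 1 of the other 913 clusters, in Fgfr2, a fibroblast growth factor receptor, and 3 of 2015 C2C12 clusters, in Clta and Mbnl1. Clta encodes a clathrin light chain and Mbnl1 another muscleblind protein. Within 10000 nt of an event there were 2 of the 466 shared clusters (0.429%) and 7 of the other 913 (0.767%). Both shared ones lay past the event of Hdgf, which encodes a heparin-binding growth factor. The nearer, chr3:87718833-87718927 on the plus strand, began 675 nt past it, with 14, 22 and 26 WT tags, 8 and 15 ΔE2 tags and 11 in C2C12. The other, chr3:87719675-87719745, began 1517 nt past it, with 5, 2 and 8 WT tags, 3 and 8 ΔE2 tags and 7 in C2C12. From the estimated counts of the authors' deposited table, inclusion of the Hdgf exon was 36.9% in WT and 16.0% in the mutant column (adjusted p = 8.16e-28 in that table, from group totals without replicate spread). In CPM the genotypes overlapped at both clusters, and no relation between binding and inclusion was tested.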

How the data were processed

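Each line of the deposited CLIP files is 1 tag with its strand. Per the submitters' processing notes, alignment was to mm9 by Novoalign, whose version is not given in these sources. Each deposited line also carries a score of unstated meaning, which was not used. The authors' deposited exon table gives an estimated count per isoform and group, and a p-value from group totals, per the file headers; its header names Mbnl2 for the mutant. RNA-seq was aligned with TopHat 1.3.2, per the submitters' processing notes. Tags were counted here per library and cluster; C2C12 lines of the same position, strand and barcode (5 bases) counted once. Loci join clusters at most 10000 nt apart. Clusters over all forelimb libraries (191766) were filtered with filterByExpr (minimum count 10) and tested with edgeR 4.0.16 (R 4.3.3; TMM, quasi-likelihood, Benjamini-Hochberg adjusted p at or under 0.05; dispersion 0.0435, 3 residual degrees of freedom); DESeq2 1.42.0 was an alternative. Counts were also simulated for 3 against 2 libraries, with 1507 clusters tested and 164 of them changed. The test recovered 21.8% of 2-fold and 83.7% of 4-fold changes, with 2 of 91 calls false. Simulated libraries were drawn independently at 1 dispersion, without the molecules that WT libraries share. The share of false calls among the real calls is therefore not known from it. Python 3.11.15 with pandas 2.3.3 did the rest. The shared clusters, lists and tests were chosen with earlier results of these data known. Clusters named are the 12 with most WT tags, the 10 calls of largest fold in each direction, and the 5 highest and 5 lowest WT to C2C12 ratios, of which some are described; loci are described for 5 or more shared clusters, and those loci, the mitochondrial locus, the loci with a ratio below 1 and the calls kept in every fit were picked after their values were seen. A permutation test of the share of tags in shared clusters is not given, because WT tags took part in choosing them. Motif content and sequences need an mm9 genome and were not analysed here. P-values measure the spread between libraries labelled as biological replicates, with ΔE2 replicates 2 and 3 merged. WT libraries share molecules, so their spread may be smaller than that between independent samples.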

Additional observations from a re-analysis of the deposited data

How the results depend on the processing

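The number of shared clusters moved from 466 to 239 with at least 20 forelimb tags and to 287 with at least 20 C2C12 tags, ran from 238 to 412 without 1 WT replicate, and was 232 without the first C2C12 block, an alternative chosen, like that giving molecules of several WT libraries to 1 library (382), after seeing the data. Calls among all tested clusters, and among those with a shared cluster (higher and lower in ΔE2), numbered 35 and 17 (15 and 2) with DESeq2, 19 and 6 (1 and 5) with no filter, 33 and 20 (15 and 5) with molecules given to 1 library, and 0 and 0 (0 and 0) with WT replicates 2 and 3 as 1 library. Library size over tested clusters gave 15 higher and 26 lower, and over all tags 9 and 31. With tags of the same 5′ end counted once, 41 clusters were called in all. Taking the 6 libraries as labelled gave 21 lower calls. Deviations of same-numbered libraries from their genotype means had correlations from -0.32 to -0.20. Because ΔE2 replicates 2 and 3 share most of their tags, these cannot show whether replicate numbers pair the samples. The replicate block gave 84 calls in all and 47 with a shared cluster, 29 higher and 18 lower. With libraries paired by replicate number, the mean difference in the share of tags in shared clusters was 10.05 points. Both the block and this mean count ΔE2 replicates 2 and 3 as separate libraries, though they share most of their tags. Fits without 1 library gave 16 to 90 calls in all, 10 to 55 with a shared cluster, 8 to 35 higher and 2 to 20 lower; the low ends came without WT replicate 2 or 3. Leaving out 1 labelled replicate at a time, the share of tags differed by 7.54 to 11.4 points. That range does not cover leaving out ΔE2 replicates 2 and 3 together. ΔE2 replicate 1 alone stood at 51.2%, nearer the WT mean of 46.3%. Summit distance was 9.63 nt by median tag midpoints. No called fold reversed, and folds that were not called were not checked for a change of sign. Depth limits single sites: 305 shared clusters could not be tested, and WT replicate 1 gave a median of 4 tags per shared cluster. Causes were not tested.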
